A study of Mus musculus with 9 samples.

Results

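The fibroblast growth factor (FGF) genes described here were 6 ligands, *Fgf1*, *Fgf2*, *Fgf7*, *Fgf9*, *Fgf10* and *Fgf18*, and the 4 signalling receptors *Fgfr1*, *Fgfr2*, *Fgfr3* and *Fgfr4*. They were chosen by name, with earlier results of these data known, as 10 of the 31274 entries of an RNA-Seq table of the mouse uterus. Whole uteri came from C57BL/6 mice on day 4.5 of pseudopregnancy, a state brought on by mating with vasectomized males, so that the uterus is under progesterone with no embryo present. The 4 control libraries were from mice with loxP sites around exon 2 of *Wnk1* (Wnk1f/f), and the 5 others were from mice that carried the same floxed alleles and a Cre recombinase driven by the progesterone receptor gene (Wnk1d/d). *Wnk1* encodes a kinase best known for its part in ion transport. Each library was 1 virgin female, and ages are not in the labels. This Cre is active wherever the progesterone receptor is made, the ovary and pituitary included, and spares endothelial and immune cells of the uterus.

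FGF ligands are secreted proteins that bind receptor tyrosine kinases together with heparan sulfate, a sugar chain on cell surface and matrix proteoglycans. The bound receptor recruits adaptor proteins and activates the RAS-ERK cascade, which in turn induces its own inhibitors. In the uterus, FGFs made in the stroma under the control of the transcription factor HAND2 are known to act on FGFR2 of the overlying epithelium and to drive its proliferation, and progesterone opposes this by raising HAND2. FGF7 and FGF10 are the classical ligands that pass from stroma to epithelium, FGF9 and FGF18 signal mainly to mesenchymal forms of the receptors, and FGF1 and FGF2 lack a classical secretion signal and reach the outside of the cell by other routes.

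Values are FPKM, fragment counts divided by exon length and by library size, and so already correct for gene length and library size, and levels of different genes can be set side by side. Absolute depth is unknown. Differences are given on the log2(FPKM + 1) scale as Wnk1d/d minus Wnk1f/f, a scale that understates changes of genes as low as the ligands. A gene passed the test when its limma p, adjusted over the 14728 genes tested, was under 0.05, and was a differentially expressed gene (DEG) when the ratio of mean FPKM was also at least 1.5 either way. Nothing in the labels ties libraries to each other beyond genotype.

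The targeted gene fell from 45.3 ± 1.62 FPKM (SD, n = 4) to 31.2 ± 1.62 FPKM (SD, n = 5), with a log2 change of -0.52 and a limma adjusted p of 0.0017. The level of the whole *Wnk1* gene includes exons outside the deletion. Median log2 values of the libraries lay between 3.79 and 3.82. Wnk1f/f replicate 4 held liver transcripts, with a liver marker sum of 171 FPKM against 8.36 to 28.3 FPKM in the other 8 libraries. In Wnk1d/d replicate 4 a single entry took 70.3% of the summed FPKM, against 6.43% to 13.8% for the top entry of the other 8. Since FPKM are divided by exon length, this is not a share of fragments. Markers of epithelium, stroma and smooth muscle were all present in every library, and fat markers were at or near 0.

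Windows before the RefSeq start of 3 ligand genes are shown because these ligands behaved differently: *Fgf10* fell, *Fgf2* rose, and *Fgf7*, the close relative of *Fgf10*, did not pass the test. Each is the 250 bases before the RefSeq gene start (GRCm38.p6, the mm10 build), all on the plus strand, at chr13:118714449-118714698 for *Fgf10*, chr2:126034408-126034657 for *Fgf7* and chr3:37348403-37348652 for *Fgf2*. The capitals mark matches to 6 short motifs that were chosen after the values were seen, and searched on both strands.
Fgf10: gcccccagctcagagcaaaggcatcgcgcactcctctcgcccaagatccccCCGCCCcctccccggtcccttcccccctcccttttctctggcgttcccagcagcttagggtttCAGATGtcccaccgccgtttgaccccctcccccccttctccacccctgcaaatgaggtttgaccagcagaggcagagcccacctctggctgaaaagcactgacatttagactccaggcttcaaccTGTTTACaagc
Fgf7: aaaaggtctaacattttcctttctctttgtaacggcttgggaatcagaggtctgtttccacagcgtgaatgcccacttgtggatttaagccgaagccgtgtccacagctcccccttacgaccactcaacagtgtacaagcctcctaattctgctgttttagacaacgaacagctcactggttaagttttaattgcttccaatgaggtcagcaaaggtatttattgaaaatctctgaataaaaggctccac
Fgf2: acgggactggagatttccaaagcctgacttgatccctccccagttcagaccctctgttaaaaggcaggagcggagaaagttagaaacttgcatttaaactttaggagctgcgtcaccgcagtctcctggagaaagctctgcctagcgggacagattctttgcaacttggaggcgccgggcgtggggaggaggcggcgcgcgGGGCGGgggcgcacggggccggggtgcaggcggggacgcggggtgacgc

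In the *Fgf10* window the capitals are, from left to right, the reverse complement of the GC box GGGCGG, the reverse complement of the E-box CATCTG and the reverse complement of the forkhead motif GTAAACA. The E-box began 136 bases and the forkhead motif 11 bases before the gene start. The forkhead motif stood in 3.17% and the E-box in 14.4% of 32851 promoter windows of the same length, and in no other of the 9 windows that matched 8 members. *Fgf1* and *Fgfr1* had no entry. The GC box was the only match in the *Fgf2* window, 49 bases before the start, and it also stood in windows of *Fgfr3*, *Fgfr4* and *Fgf18*, against 32.7% of all windows. The remaining motifs, TGGGTGGTC (0.225% of all windows), TATAAA (12.4%) and TGTTCT (16.1%), had no match in any member window. The *Fgf7* window had none of the 6 and a GC content of 43.6%, against 61.2% for *Fgf10*, 62.4% for *Fgf2* and a median of 52.4% over all windows. *Fgf10* has a further annotated start upstream of this window, at position 118669791, which these letters do not cover. *Fgf2* has an annotated transcript that starts at position 37348346, so its window lies downstream of that start and inside the annotated gene. A match is a run of letters and was not tested as a binding site.

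Among the ligands, *Fgf10* fell and *Fgf1* and *Fgf2* rose in Wnk1d/d uteri, whereas *Fgf7*, *Fgf9* and the 4 receptors did not pass the test and *Fgf18* was too low to be tested. Of the 10 members 9 entered the test, of which 2 were higher and 1 was lower. Across all genes tested, 11.1% were higher and 11.0% were lower, so the members' count is close to that background in number. All 3 were DEGs, which 10.3% of all genes tested were. The libraries of the genotypes did not overlap for 4 of the 9, *Fgf1*, *Fgf2*, *Fgf9* and *Fgf10*, and for 19.9% of all genes tested. *Fgf2* reached the mean of 1 FPKM needed for testing through Wnk1d/d uteri alone, and *Fgf10* and *Fgfr4* through Wnk1f/f uteri alone, so the count over tested members describes them and supports nothing further. With no filter on low values the same 3 passed, with limma adjusted p of 0.045 for *Fgf1*, 0.017 for *Fgf2* and 0.0068 for *Fgf10*.

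**Figure D1:**
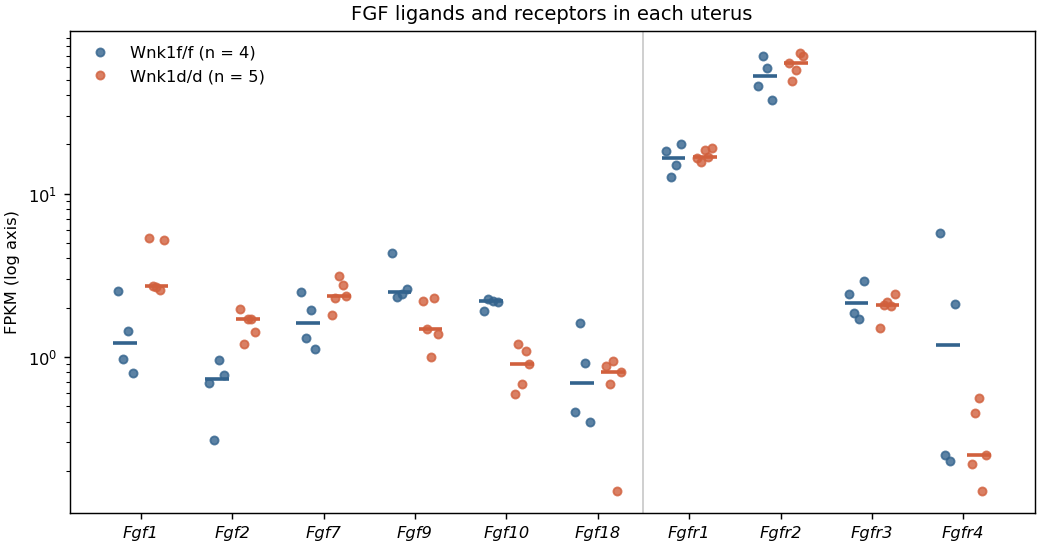
FPKM on a log axis of each FGF ligand and receptor in every uterus, with 1 point for each library and a bar at the median of the genotype. *Fgf1*, *Fgf2*, *Fgf9* and *Fgf10* show no overlap between the genotypes, and *Fgfr2* and *Fgfr1* lie far above all other members in both.

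*Fgf10* (chromosome 13, 118669791 to 118792115, plus strand, GENCODE M21 on mm10) is the stromal ligand required for outgrowth of many branching epithelia. Its level was 1.91, 2.27, 2.2 and 2.17 FPKM in Wnk1f/f replicates 1 to 4 and 0.59, 1.20, 0.68, 1.09 and 0.90 FPKM in Wnk1d/d replicates 1 to 5. The controls were tightly grouped and every Wnk1d/d uterus lay below the lowest of them, with replicates 1 and 3 lowest. The mean fell from 2.14 ± 0.157 FPKM (SD, n = 4) to 0.892 ± 0.260 FPKM (SD, n = 5), 2.40 times lower, and the log2 difference was -0.74 with a standard error of 0.12 and a limma adjusted p of 0.0055. The exact two-sided permutation test gave p = 0.0079, the smallest that 4 against 5 libraries allow. With any 1 library left out the difference stayed between -0.80 and -0.68 and still passed the test, with the highest adjusted p at 0.017.

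*Fgf10* was not alone in this pattern over the libraries. Without any p, and over only 9 libraries that differ in genotype, the tested genes with the most similar log2 values were *Frmd8* (Pearson r = 0.987), *Wnt6* (r = 0.983) and *Snn* (r = 0.983) among 14727 compared. The endothelial marker genes *Vwf* (r = 0.980) and *Cdh5* (r = 0.978) also varied with it. The stromal marker genes were split. *Hoxa11* (r = 0.972), *Hoxa10* (r = 0.943) and *Pdgfra* (r = 0.873) varied with *Fgf10*. *Lum* (r = -0.94), *Col1a1* (r = -0.9), *Col3a1* (r = -0.838) and *Dcn* (r = -0.64) varied against it. The other endothelial markers had r of 0.897 (*Kdr*) to 0.968 (*Tek*). All 6 endothelial markers fell, and their summed level was 331 to 367 FPKM in Wnk1f/f and 132 to 266 FPKM in Wnk1d/d uteri. Wnk1d/d replicates 1 and 3 were lowest here too, as they were for *Hoxa10*, *Hoxa11* and *Hand2*. The falls of *Cdh5*, *Tek*, *Vwf* and *Emcn* held with any 1 library left out, and those of *Pecam1* and *Kdr* were lost in 4 and 7 of 9 fits. The part of endothelial or stromal cells in the fall of *Fgf10* was not tested. In RNA from whole tissue, fewer cells of a type and less RNA in each cell cannot be told apart.

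*Fgf7* (chromosome 2, 126034658 to 126091185, plus strand), known as keratinocyte growth factor, is the other ligand that acts from stroma on epithelium. It was at 2.49, 1.31, 1.92 and 1.11 FPKM in Wnk1f/f and 1.81, 2.28, 3.13, 2.76 and 2.35 FPKM in Wnk1d/d replicates. The genotypes overlapped, since Wnk1f/f replicate 1 was above 3 of the Wnk1d/d uteri. The log2 difference of 0.37 had a 95% interval from -0.0046 to 0.75 and a limma adjusted p of 0.13, so neither no difference nor a rise of the size seen for *Fgf2* lies outside what these libraries allow. The ratio of *Fgf7* to *Fgf10*, which was chosen after the values were seen and is given without a test, was 0.51 to 1.30 in Wnk1f/f and 1.90 to 4.60 in Wnk1d/d uteri.

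*Fgf1*, or acidic FGF, can bind all FGF receptors. Its level was 2.51, 0.97, 1.44 and 0.79 FPKM in Wnk1f/f and 5.34, 2.73, 2.67, 2.55 and 5.16 FPKM in Wnk1d/d replicates. The lowest Wnk1d/d uterus was only just above the highest control, and Wnk1d/d replicates 1 and 5 stood well above the rest. The mean rose from 1.43 ± 0.772 (SD, n = 4) to 3.69 ± 1.43 FPKM (SD, n = 5), 2.59 times higher, with a log2 difference of 0.95, a standard error of 0.25 and a limma adjusted p of 0.028 (exact two-sided permutation p = 0.0079). The call depended on single libraries. The limma adjusted p was 0.067 without Wnk1f/f replicate 2, 0.051 without Wnk1f/f replicate 3, 0.078 without Wnk1f/f replicate 4, 0.056 without Wnk1d/d replicate 1 and 0.062 without Wnk1d/d replicate 5. The difference itself stayed between 0.82 and 1.14.

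The genes most like *Fgf1* over the 9 libraries were *Crb2* (r = 0.975), *Bmp6* (r = 0.959) and *Sgcd* (r = 0.951). The mesothelial markers *Lrrn4* (r = 0.941), *Msln* (r = 0.926) and *Upk3b* (r = 0.912), which mark the outer lining of the uterus, varied with it as well. *Wt1*, also listed as a mesothelial marker, varied against it (r = -0.643). Smooth muscle markers had r of 0.772 (*Des*) to 0.846 (*Myh11*). Of the 4 mesothelial markers *Lrrn4* rose (limma adjusted p = 0.036) and *Wt1*, which uterine stroma also makes, fell (0.020). *Msln* (0.0503) and *Upk3b* (0.13) did not pass. The summed level of the 4 was 60.5 to 87.4 FPKM in Wnk1f/f and 65.2 to 115 FPKM in Wnk1d/d uteri. *Wt1* made up the largest part of this sum, with means of 61.65 FPKM in Wnk1f/f and 46.08 FPKM in Wnk1d/d uteri. In the same order, the means were 5.15 and 13.9 FPKM for *Msln*, 7.14 and 14.0 FPKM for *Upk3b*, and 1.52 and 4.70 FPKM for *Lrrn4*. All 7 smooth muscle markers rose, from summed levels of 2968 to 6681 FPKM to levels of 7491 to 14100 FPKM. With single libraries left out, 4 of these 7 calls held in all 9 fits, *Myh11*, *Tagln* and *Smtn* being the exceptions, and the calls of *Lrrn4* and *Wt1* were lost in 5 and 2 fits. The part of either cell type in the level of *Fgf1* was not tested.

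*Fgf2* (chromosome 3, 37348346 to 37410108, plus strand), or basic FGF, is a mitogen of fibroblasts and endothelial cells. It was at 0.69, 0.31, 0.95 and 0.77 FPKM in Wnk1f/f and 1.95, 1.19, 1.71, 1.71 and 1.42 FPKM in Wnk1d/d replicates. All Wnk1d/d uteri were above all controls, and Wnk1f/f replicate 2 was lowest. The mean rose from 0.680 ± 0.270 (SD, n = 4) to 1.60 ± 0.295 FPKM (SD, n = 5), 2.35 times higher, with a log2 difference of 0.64, a standard error of 0.14 and a limma adjusted p of 0.015 (exact two-sided permutation p = 0.0079). Leaving out any 1 library kept the call, at differences of 0.52 to 0.71. With both replicates 4 left out, chosen after the data were seen because these libraries stood apart, the adjusted p was 0.061 for *Fgf2* and 0.081 for *Fgf1*.

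Exons of *Fgf2* share 640 bases with exons of *Nudt6* on the opposite strand. The sources used here do not say that strand was used in assigning fragments, so fragments from the shared bases cannot be told apart. *Nudt6* was at 9.74 ± 1.15 FPKM (SD, n = 4) in Wnk1f/f and 11.8 ± 1.11 FPKM (SD, n = 5) in Wnk1d/d uteri (limma adjusted p = 0.071). The ratio of *Fgf2* to *Nudt6*, chosen after the values were seen and given without a test, was 0.036 to 0.107 in Wnk1f/f and 0.110 to 0.182 in Wnk1d/d uteri. The gap between the genotypes was narrow. This ratio largely repeats the *Fgf2* levels given above and does not separate fragments from the shared bases. Exons also overlapped opposite-strand transcripts for *Fgf10* (123 exon bases), *Fgfr1* (164) and *Fgfr3* (998). On the same strand *Fgfr2* shared 314 exon bases with *Ctbp2*, through 1 long annotated transcript, and *Fgf2* shared 255 with *Gm43439*. The genes most like *Fgf2* over the libraries were *Armc1* (r = 0.972), *Ap3m1* (r = 0.969) and *Lum* (r = 0.968), the last a collagen-binding matrix protein of stroma. Other stromal markers were split. *Col1a1* (r = 0.828), *Col3a1* (r = 0.797) and *Dcn* (r = 0.63) varied with *Fgf2*. *Pdgfra* (r = -0.798), *Hoxa10* (r = -0.875) and *Hoxa11* (r = -0.893) varied against it. Such r were not particular to stromal markers. Endothelial markers had r of -0.897 (*Vwf*) to -0.841 (*Kdr*) with *Fgf2*, and smooth muscle markers 0.668 (*Smtn*) to 0.82 (*Actg2*). Of the mesothelial markers, *Msln* (r = 0.825), *Lrrn4* (r = 0.823) and *Upk3b* (r = 0.696) varied with *Fgf2* and *Wt1* (r = -0.604) against it.

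*Fgf9* (chromosome 14, 58070547 to 58112720, plus strand) was at 4.30, 2.33, 2.41 and 2.60 FPKM in Wnk1f/f and 2.19, 1.48, 0.99, 2.29 and 1.37 FPKM in Wnk1d/d replicates. The genotypes did not overlap, but the gap was narrow, from 2.29 to 2.33 FPKM, and Wnk1f/f replicate 1 stood far above the other controls. The log2 difference of -0.55 (95% interval -0.98 to -0.13) missed the threshold with a limma adjusted p of 0.064, and the exact two-sided permutation test of this gene alone gave p = 0.032. Without Wnk1f/f replicate 1 the adjusted p was 0.14 and the difference -0.40.

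*Fgf18* (chromosome 11, 33117430 to 33147400, minus strand) was at 0.46, 1.61, 0.91 and 0.40 FPKM in Wnk1f/f and 0.88, 0.68, 0.94, 0.15 and 0.81 FPKM in Wnk1d/d replicates. Both means were under 1 FPKM, so the gene was not tested with the others. With no filter its log2 difference was -0.10 (95% interval -0.59 to 0.38, limma adjusted p = 0.78).

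**Figure D2:**
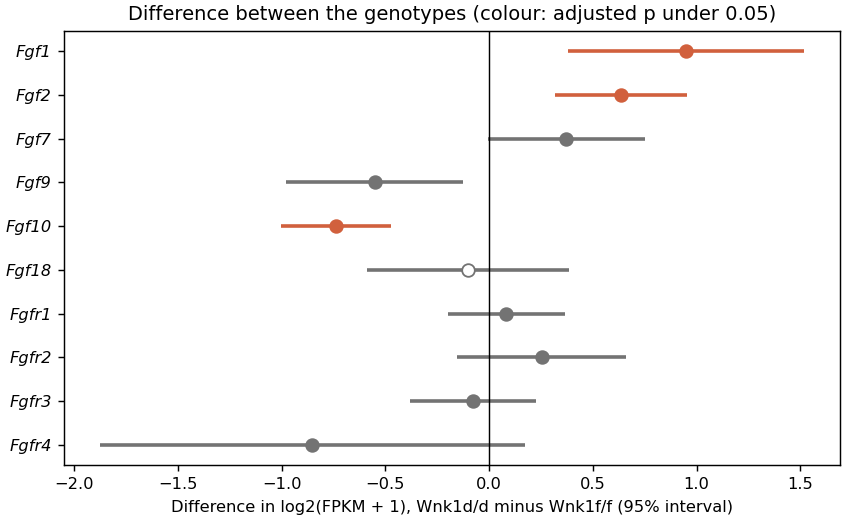
Difference in log2(FPKM + 1), Wnk1d/d minus Wnk1f/f, for the 10 members, with 95% intervals from limma (n = 4 and 5 libraries). Orange marks *Fgf1*, *Fgf2* and *Fgf10*, which passed the test, and the open point of *Fgf18* is from the fit with no filter on low values.

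The summed level of the 6 ligands overlapped between the genotypes, at 7.84 to 12.4 FPKM in Wnk1f/f and 9.56 to 12.8 FPKM in Wnk1d/d uteri. Their make-up is described by shares chosen after the values were seen, with no test. *Fgf10* gave 15.5% to 27.7% of the summed ligand FPKM in Wnk1f/f and 4.62% to 12.6% in Wnk1d/d uteri, and *Fgf9* gave 24.5% to 34.8% and 9.78% to 21.7%. *Fgf1* and *Fgf2* together gave 14.6% to 25.9% in Wnk1f/f and 40.4% to 57.1% in Wnk1d/d uteri. These shares follow from the levels given above and add no independent evidence.

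**Figure D3:**
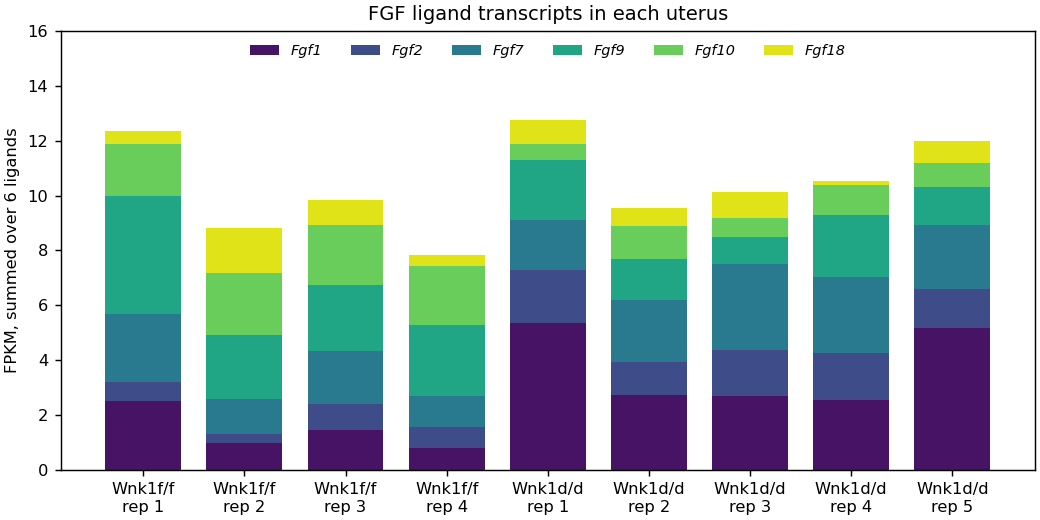
FPKM of the 6 ligands stacked for each uterus, from a zero baseline. The bars of the genotypes reach overlapping heights, whereas the *Fgf1* and *Fgf2* segments are taller and the *Fgf10* segment shorter in all 5 Wnk1d/d uteri.

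The receptors are tyrosine kinases that differ in tissue and in ligand preference. *Fgfr2* (chromosome 7, minus strand), whose IIIb splice form in epithelium is the receptor for FGF7 and FGF10, had the highest level of all members. It was at 45.9, 69.9, 59.0 and 37.6 FPKM in Wnk1f/f and 63.6, 48.7, 57.5, 72.6 and 69.7 FPKM in Wnk1d/d replicates. The ranges overlapped over most of their width, and the log2 difference of 0.25 had a 95% interval from -0.15 to 0.66 (limma adjusted p = 0.33). FPKM of the whole gene do not separate the splice forms. Of 8 epithelial markers *Krt7* and *Cldn7* rose and the other 6 did not pass, with sums of 813 to 1163 FPKM in Wnk1f/f and 873 to 1456 FPKM in Wnk1d/d uteri. Both calls were lost with single libraries left out, in 6 and 5 of 9 fits at adjusted p of up to 0.093 and 0.104.

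*Fgfr1* (chromosome 8, 25513654 to 25575718, plus strand), the main receptor of mesenchyme, was next, at 18.1, 12.7, 14.9 and 20.2 FPKM in Wnk1f/f and 16.5, 15.5, 18.6, 16.8 and 19.1 FPKM in Wnk1d/d replicates. The Wnk1d/d uteri all lay within the range of the controls. The log2 difference was 0.08 (95% interval -0.20 to 0.36, limma adjusted p = 0.66). In both genotypes the ranges of *Fgfr2*, *Fgfr1* and the member below them did not overlap, whereas every other neighbour in the order of levels overlapped with the next.

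*Fgfr3* (chromosome 5, 33721674 to 33737068, plus strand) was at 2.43, 1.86, 1.69 and 2.90 FPKM in Wnk1f/f and 1.5, 2.06, 2.15, 2.04 and 2.42 FPKM in Wnk1d/d replicates. The genotypes overlapped, and the log2 difference was -0.08 (95% interval -0.38 to 0.23, limma adjusted p = 0.70). *Fgfr4* (chromosome 13, 55152640 to 55168759, plus strand), best known as the receptor for FGF15 in liver, was at 5.71, 0.25, 0.23 and 2.11 FPKM in Wnk1f/f and 0.22, 0.45, 0.56, 0.15 and 0.25 FPKM in Wnk1d/d replicates. Wnk1f/f replicates 1 and 4 were high and the other controls were among the Wnk1d/d values, and the log2 difference of -0.85 had a wide 95% interval, from -1.88 to 0.17 (limma adjusted p = 0.20). Liver markers summed to 171 FPKM in Wnk1f/f replicate 4 and to 9.28 FPKM in replicate 1, where *Fgfr4* was highest, and the part of liver RNA in these values was not tested.

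The other genes of the pathway were described by lists drawn up for this tissue with earlier results of these data known. Of 90 genes listed, 68 were tested, of which 14 (20.6%) rose and 13 (19.1%) fell, beside 11.1% and 11.0% of all genes tested, with a median log2 difference of -0.0024 against 0.0030 over all genes tested. When the libraries were left out 1 at a time, 15 of these 27 calls held in all 9 fits and 12 were lost in at least 1. Of the other FGF ligands only *Fgf11*, an FGF that stays inside the cell, was high enough to be tested, at 3.32 and 3.21 FPKM (limma adjusted p = 0.89).

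Of 14 coreceptors and binding proteins, 6 rose and 1 fell. *Gpc4*, a glypican that carries heparan sulfate on the cell surface, rose from 11.2 ± 1.34 to 20.7 ± 1.5 FPKM (SD, n = 4 and 5, log2 difference 0.84, limma adjusted p = 0.0014), while its relative *Gpc6* fell from 11.1 ± 1.38 to 7.06 ± 0.708 FPKM (log2 difference -0.58, 0.0060). *Hspg2*, the basement membrane proteoglycan perlecan, rose to 120 FPKM from 80.1 FPKM. *Fgfrl1*, a receptor with no kinase domain, rose from 12.5 to 17.1 FPKM (limma adjusted p = 0.0098) and the syndecan *Sdc3* from 28.8 to 40.1 FPKM (0.0045). The rise of *Sdc1* was lost in 5 and that of *Flrt2* in 8 of the 9 fits that left out 1 library, at adjusted p of up to 0.068 and 0.086. The most abundant of those that did not pass were *Sdc4* (0.58) and *Gpc1* (0.051).

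Of 11 genes that build or trim heparan sulfate, 2 rose and 1 fell. *Sulf2*, which removes sulfate groups at the cell surface, rose from 21.7 ± 3.19 to 43.4 ± 7.70 FPKM (SD, n = 4 and 5, log2 difference 0.96, limma adjusted p = 0.0038). *Ext1*, a polymerase of the chain, rose from 11.3 to 13.9 FPKM and *Hs3st1*, a sulfotransferase, fell from 12.2 to 8.42 FPKM, and these calls were lost in 4 and 3 of the 9 fits that left out 1 library.

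Of 15 adaptors and relay proteins, 3 rose and 2 fell. *Gab1*, a docking protein for activated receptors, fell from 19.2 ± 1.45 to 10.2 ± 1.20 FPKM (SD, n = 4 and 5, log2 difference -0.86, limma adjusted p = 0.0017). The phospholipase *Plcg1* fell from 46.9 to 32.3 FPKM, a call lost without Wnk1f/f replicate 4 or Wnk1d/d replicate 3, at adjusted p of 0.057 and 0.051. *Grb2*, *Ptpn11* and *Map2k1* rose by small amounts, with ratios of 1.16, 1.23 and 1.17, and lost the call in 7, 4 and 4 of those fits. The ERK kinase gene *Mapk3* was at 170 and 150 FPKM (0.21).

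**Figure D4:**
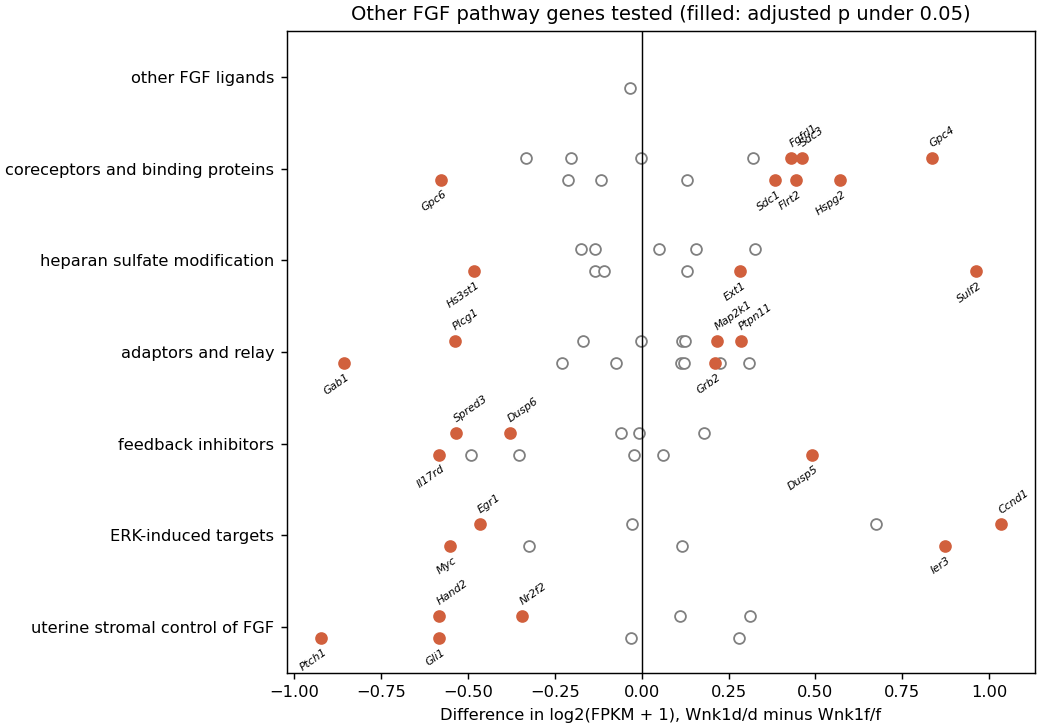
Difference in log2(FPKM + 1), Wnk1d/d minus Wnk1f/f, of the 68 other pathway genes tested, by list, with 1 point for each gene. Filled, named points passed the test, 14 to the right and 13 to the left of 0. In every list with more than 1 gene but the stromal control list, filled points lie on both sides of 0.

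Of 11 feedback inhibitors, 1 rose and 3 fell. *Il17rd*, a membrane inhibitor also called SEF, fell from 7.81 ± 0.552 to 4.88 ± 0.514 FPKM (SD, n = 4 and 5, log2 difference -0.59, limma adjusted p = 0.0038), and *Spred3* from 6.63 to 4.27 FPKM (0.0073). *Dusp6*, an ERK phosphatase induced by FGF signalling, fell from 20.7 to 15.6 FPKM (0.023), a call lost without Wnk1f/f replicates 1, 2 or 3 (adjusted p up to 0.056). *Dusp5*, a nuclear ERK phosphatase, rose from 2.12 to 3.39 FPKM (0.017). The Sprouty genes *Spry1* (0.058) and *Spry2* (0.66) did not pass.

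Of 8 genes that ERK signalling induces in many cells, 2 rose and 2 fell. *Ier3* rose from 144 ± 9.39 to 265 ± 23.0 FPKM (SD, n = 4 and 5, log2 difference 0.87, limma adjusted p = 0.0014) and *Ccnd1*, or cyclin D1, from 32.0 to 64.3 FPKM (0.020; 0.051 without Wnk1d/d replicate 3). *Myc* fell from 98.4 to 67.2 FPKM (0.016) and *Egr1* from 27.0 to 19.4 FPKM (0.025), a call lost in 3 of the fits that left out 1 library. *Etv5*, a transcription factor read as a marker of FGF signalling in many tissues, was at 11.7 and 9.17 FPKM (0.067). *Fos*, which leaned the other way, was at 7.62 ± 1.33 and 14.7 ± 9.05 FPKM (SD, n = 4 and 5, limma adjusted p = 0.24).

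Of 8 genes known to act upstream of FGF production in the uterine stroma, 4 fell and the others did not pass. *Hand2* was at 87.2 ± 6.16 FPKM (SD, n = 4) in Wnk1f/f and 59.0 ± 13.9 FPKM (SD, n = 5) in Wnk1d/d uteri, with a log2 difference of -0.58 and a limma adjusted p of 0.029. That call was lost in 5 of the 9 fits, without Wnk1f/f replicates 1, 2 or 4 or Wnk1d/d replicates 3 or 5, at adjusted p of 0.058 to 0.070. *Ptch1*, the hedgehog receptor, and *Gli1*, a hedgehog effector, both also targets of that pathway, fell from 68.5 to 36.1 FPKM (0.015) and from 57.2 to 38.2 FPKM (0.017), and *Nr2f2*, which encodes COUP-TFII, from 40.2 to 31.4 FPKM (0.0066). The epithelial hedgehog ligand *Ihh* varied too widely to compare, with 17 ± 12.1 (SD, n = 4) and 20.9 ± 14.1 FPKM (SD, n = 5, 0.76). *Esr1* (0.13) and *Pgr* (0.66), the steroid receptors, did not pass.

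**Figure D5:**
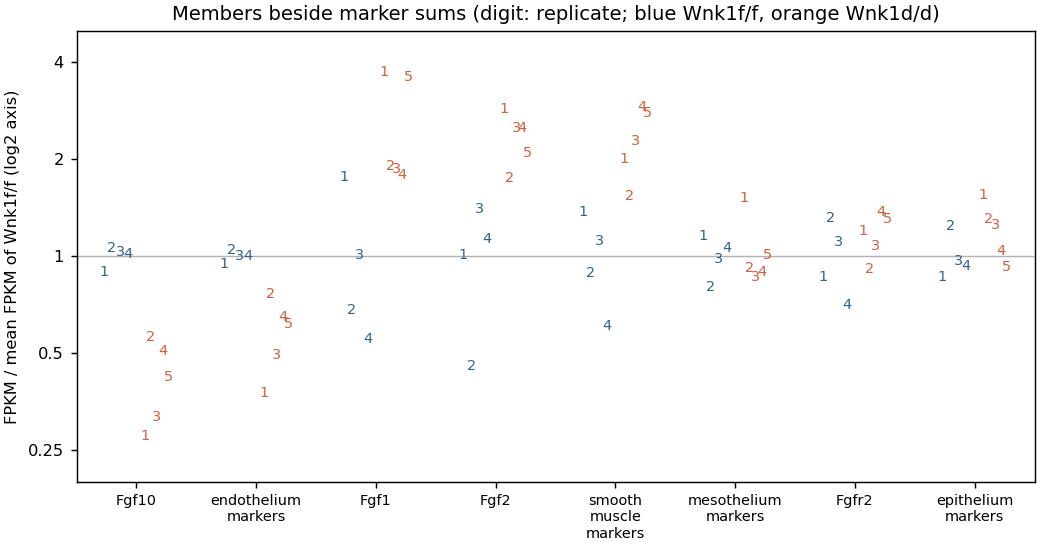
FPKM relative to the Wnk1f/f mean, on a log2 axis, of 4 members and of summed marker lists, with the replicate digit as the point (blue Wnk1f/f, orange Wnk1d/d). *Fgf10* (0.276 to 0.561 in Wnk1d/d) and the endothelial sum (0.376 to 0.762) were both lower, and *Fgf1*, *Fgf2* and the smooth muscle sum (1.54 to 2.90) higher, in every Wnk1d/d uterus than in any control.

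Markers of stroma, the source of several of these ligands, moved both ways: of 7 tested, *Lum*, *Col1a1* and *Col3a1* rose and *Pdgfra*, *Hoxa10* and *Hoxa11* fell. The call of *Col3a1* was lost in 5 of the 9 fits that left out 1 library. Their summed level was 1835 to 2340 FPKM in Wnk1f/f and 2239 to 2830 FPKM in Wnk1d/d uteri. Of 6 immune markers *Cd14* rose and the others did not pass, with sums of 101 to 167 FPKM and 133 to 219 FPKM. The 7 liver markers tested had limma adjusted p of 0.13 to 0.38. The part of cell make-up in the levels of the members was not tested.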

How the data were processed

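Uterine RNA from 4 Wnk1f/f and 5 Wnk1d/d mice was extracted with TRIzol, made into TruSeq libraries and sequenced as paired ends, with 1 library for each mouse. The authors aligned reads to mm10 with TopHat and deposited FPKM for 31274 gene symbols without pooling replicates. The methods and the submitters' processing notes give different Cufflinks versions, the latter 2.0.2, and the gene annotation is not given in the sources used here. All 9 columns were mapped by their labels. FPKM hold no counts. Steps in low values were read under 3 settings, each later one tried because the earlier left few entries (2 to 14 in all). The largest worth of 1 fragment came out at 1.32 to 1.38 times the smallest. The choice of entries can itself limit this ratio, so it cannot show whether the libraries differed more in depth.

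From the deposited FPKM, log2(FPKM + 1) was fitted with limma 3.58.1 in R 4.3.3 (lmFit, eBayes with trend, unpaired), for genes with a mean above 1 FPKM in at least 1 genotype, with Benjamini-Hochberg adjustment over all 14728 genes. Single members were compared by exact permutation over all 126 divisions (SciPy 1.17.1, NumPy 2.4.6, Python 3.11.15), with no adjustment over the members. Coordinates are from GENCODE M21 on mm10. The members and gene lists were chosen with earlier results of these data known. Named genes were the members, *Wnk1*, *Nudt6*, *Hand2*, up to 6 genes of each list past the test with 1 or 2 abundant others, and the 3 genes most like each of the 3 members with the smallest p, and some named by this rule are given as counts only. *Etv5*, *Ihh* and *Pgr* were named outside this rule. The 6 motifs and 13 ratios and shares of members were chosen after values were seen, and only some of these ratios and shares are printed. The alternatives, 18 other fits and a fold criterion of 2, are given at the end. Replicate numbers name different mice, and deviations of same-numbered libraries correlated at -0.27 to 0.022, so no pairing was used.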

Additional observations from a re-analysis of the deposited data

Results flagged for a closer look

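In the 20 groups of 4 or 5 libraries examined for the members (10 genes in each genotype), Dixon's 95% criterion on log2(FPKM + 1) marked 2 single libraries, where chance marks about 1 in 20. *Fgf9* in Wnk1f/f replicate 1, at 4.30 FPKM, lay far above the other controls and was also marked on FPKM without the log. *Fgf18* in Wnk1d/d replicate 4, at 0.15 FPKM, lay below the other Wnk1d/d uteri with a gap of 0.725 of the group's range on the log scale, and was not marked on FPKM, where the gap was 0.671 of the range. It was in the library in which a single entry took 70.3% of the summed FPKM. Whether that entry bears on *Fgf18* was not tested.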

How the results depend on the processing

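Of the 10 members, 3 passed the test and were DEGs with all 9 libraries. Both counts were 0 with a filter at a mean of 5 FPKM, which leaves only *Fgfr1* and *Fgfr2* to test (neither at an unadjusted limma p under 0.05), 1 with a replicate block and 1 with both replicates 4 left out, an alternative added after seeing the data, and 2 to 3 when 1 library was left out. They were 3 or 4 under a pseudocount of 0.1, no filter, median scaling, quantile normalization, robust estimation and library weights, and the DEGs were 3 with a fold criterion of 2. Under library weights *Fgf9* was the fourth (adjusted p = 0.032). The 27 pathway calls became 4 with the replicate block and 17 to 29 without 1 library, the lowest without Wnk1d/d replicate 3. The block gave 220 calls over all genes against 3249. Its limma adjusted p was 0.045 for *Fgf1*, the 1 member that passed, 0.063 for *Fgf2*, 0.060 for *Fgf10* and 0.052 for *Wnk1*. The block drops Wnk1d/d replicate 5 from the comparison of like numbers, and no library correlated best with its own number. Small differences changed sign: *Fgfr1* (-0.029 to 0.18) and *Fgfr3* (-0.16 to 0.020) without 1 library, *Fgfr3* with library weights (0.0089) and without both replicates 4 (0.017), *Sdc4* without both (-0.053), *Ihh* without 1 library (-0.23 to 0.72) and without both (-0.53), and *Fgf11* with library weights (0.048) and without 1 library (-0.15 to 0.048). None of these passed the test, and the cause was not tested. Depth is unknown, and *Fgf18* in both genotypes, *Fgf2* in Wnk1f/f, and *Fgf10* and *Fgfr4* in Wnk1d/d uteri had means under 1 FPKM.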
